A study of Mus musculus with 2 samples.

Results

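A group of 10 genes of the Wnt pathway was examined in cultured mouse osteoblasts, the cells that build bone, with and without the kinase inhibitor PP1. They are the ligands Wnt4, Wnt5a and Wnt16, the co-receptors Lrp5 and Lrp6, β-catenin (Ctnnb1), the target gene Axin2, and the transcription factors Lef1, Tcf7 and Tcf7l2. Members were taken as all probe sets, groups of short array probes against 1 transcript, that the platform annotation assigns to exactly 1 of these genes. This gave 21 of 45037 non-control probe sets, for 9 of the 10 genes, out of 18193 genes with a probe set of their own. The annotation used here names no probe set for Tcf7, so its expression was not analysed here.

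The PP1 group is 1 array of primary osteoblasts from calvaria of 7-day-old CD1 mice, kept without serum, in medium with bovine serum albumin, for 24 h and then given 2 µM PP1, described in the labels as a c-Src inhibitor, for 24 h. The DMSO group is 1 array of the same kind of cells, starved alike and given the vehicle DMSO for 24 h. The labels give no genotype, sex or number of animals, and do not say whether the cells of an array were pooled from several animals. With 1 array per group there are no replicates, no test between groups is possible, and each value below describes these 2 arrays.

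Wnt ligands are secreted, lipid-modified glycoproteins. In the canonical branch a ligand brings a Frizzled receptor together with Lrp5 or Lrp6, the complex of Axin, Apc, Gsk3 and casein kinase no longer marks β-catenin for breakdown, and β-catenin enters the nucleus and works with TCF and LEF factors on target genes such as Axin2. Other ligands, of which Wnt5a is the best known, signal mainly without β-catenin. In bone this pathway is known for promoting osteoblast formation: human LRP5 loss of function causes low bone mass, and in mice osteoblast-derived Wnt16 protects cortical bone. Src-family kinases are also known to phosphorylate β-catenin and the LRP co-receptors, but arrays measure RNA only, and neither phosphorylation nor protein was measured here.

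Signals are the deposited linear intensities, with the PP1 array multiplied by 1.68 to equalise the 2% trimmed means of the arrays (94.1 on the PP1 array as deposited and 158.1 on the DMSO array). A floor of 31.7, the median over the non-control signals of the 2 arrays together, replaced any dimmer signal. A probe set counted as measured if it exceeded the floor on at least 1 array. The log2 ratio is PP1 minus DMSO, so a positive value means higher with PP1, relative to the bulk of transcripts. As deposited, the median log2 ratio of measured genes was -0.71, against 0.01 after scaling. Different probe sets of a gene gave log2 ratios with an SD of 0.41 over 4745 genes, which covers disagreement between probe sets and not variation between cultures. Among control probe sets, those of Gapdh gave 0.35 at the 3′ end and 0.86 at the 5′ end, and those of β-actin 0.18 and 0.04. Whether RNA quality differed between the arrays was not tested.

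With PP1 most measured members lay close to their level with DMSO. By its brighter probe set Wnt4 was the member with the lowest ratio, 2.51-fold lower, and Tcf7l2, at 1.74-fold higher, had the highest. The β-catenin gene was at 1.09-fold, Lrp5 at 1.17-fold, Lrp6 at 1.28-fold, Wnt5a at 1.10-fold and the target Axin2 at 0.940-fold of their DMSO level. Wnt16 and Lef1 were under the floor on both arrays, so no ratio is given for them.

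Of the 21 member probe sets, 15 were measured and 6 were below the floor on both arrays. Among the 15, 13 exceeded the floor on both arrays and the other 2 with PP1 only. The 15 cover 7 genes. At gene level, by the probe set with the highest mean of its log2 signals, 1 of the 7 was at least 2-fold lower with PP1 (1.55% of 12133 measured genes were) and 0 were at least 2-fold higher (3.02% of measured genes). At 1.5-fold, 1 member was lower (7.38% of measured genes) and 1 was higher (10.6%). The median log2 ratio of the 7 was 0.14, and that of all measured genes 0.01. Counted by probe set, 1 of the 15 was at least 2-fold lower (1.44% of 24180 measured probe sets) and 1 at least 2-fold higher (4.14%), and at 1.5-fold 1 was lower (7.13%) and 3 were higher (13.5%). Of the 15, 12 had a ratio above 0, as did 55.0% of all measured probe sets, and 9 had a ratio no larger than the SD between probe sets of a gene. Probe sets of 1 gene share a transcript and are not independent.

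**Figure D1:**
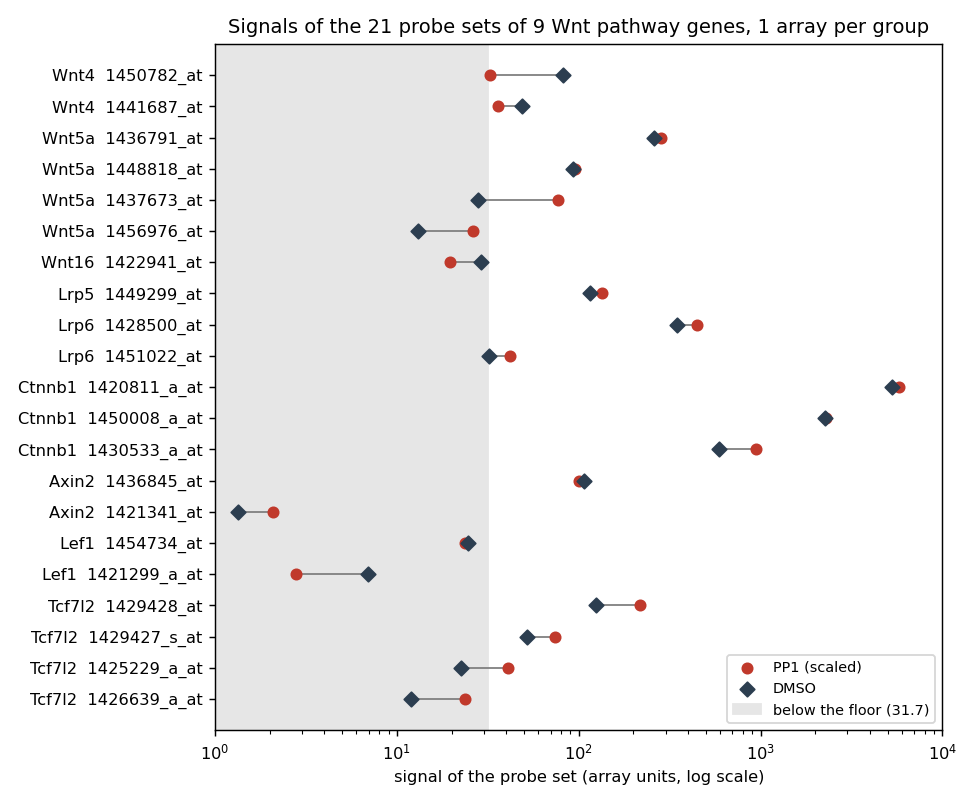
Signals of the 21 member probe sets on a log axis in array units, with circles for PP1 (scaled), diamonds for DMSO and grey for signals below the floor of 31.7. The 2 Wnt4 probe sets have PP1 left of DMSO, all 4 Tcf7l2 and both Lrp6 probe sets have PP1 to the right, and Lef1 and Wnt16 lie wholly in the grey range.

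The sequences before the start sites of the measured members with the lowest and the highest gene-level ratio, Wnt4 and Tcf7l2, are shown for reference, to let them be searched for the core of the TCF and LEF recognition site. Both are the 250 bases before a RefSeq start (build GRCm38.p6), 5′ to 3′ on the plus strand: chr4:137277385-137277634 for Wnt4 and chr19:55741560-55741809 for Tcf7l2. Capitals mark the core CTTTG on either strand (CAAAG is its reverse complement).
Wnt4: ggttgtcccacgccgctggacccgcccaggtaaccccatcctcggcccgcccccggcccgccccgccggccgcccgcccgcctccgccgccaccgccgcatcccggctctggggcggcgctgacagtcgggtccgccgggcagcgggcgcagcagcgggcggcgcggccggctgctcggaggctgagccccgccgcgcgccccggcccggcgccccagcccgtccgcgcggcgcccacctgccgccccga
Tcf7l2: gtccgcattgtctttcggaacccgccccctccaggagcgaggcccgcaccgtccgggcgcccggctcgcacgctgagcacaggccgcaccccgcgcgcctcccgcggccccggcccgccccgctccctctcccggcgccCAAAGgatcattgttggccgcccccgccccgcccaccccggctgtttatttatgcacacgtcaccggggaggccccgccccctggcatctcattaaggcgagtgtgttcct
The Wnt4 window, with 85.2% G and C, held 0 matches. The Tcf7l2 window, with 72.8% G and C, held 1, beginning 111 bases before the start, and the window of its second annotated start held 1 too. Of the 13 windows of the 7 members with any, 6 held a match. That share is near the one over all genes, 48.6% of 32851 windows. All 6 were at Lef1 or Tcf7l2, and the 2 windows of Tcf7 held 0. Windows of a gene are not independent, as 2 of those of Lef1 overlap and count the same site. Axin2, the textbook β-catenin target, had 0 in its window. A match describes letters only, and 0 matches in this window says nothing of TCF binding elsewhere in a gene.

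Among the ligands, Wnt4 had dim signals. Wnt4 takes part in kidney, gonad and bone development and can act with or without β-catenin. Its probe set 1450782_at had a signal of 32.5 with PP1, against 81.7 with DMSO, a log2 ratio of -1.33. The PP1 signal was thus 1.03 times the floor and the DMSO signal 2.58 times. Of measured probe sets, 0.521% had a lower ratio. Among those whose brighter signal was 2 to 4 times the floor, the range Wnt4 lies in, 2.35% were at least 2-fold lower. The other probe set, 1441687_at, had 36.2 with PP1 and 48.9 with DMSO, a ratio of -0.43. Both probe sets were lower with PP1, as was so for 25.1% of the 3265 genes with 2 measured probe sets, but they differed from each other by 0.89 on the log2 scale. The median over both, -0.88, ends the 2-fold difference.

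Wnt5a, the non-canonical ligand that signals through Ror2 and Ryk, gave ratios that depended on the probe set. Its brightest, 1436791_at, had 284.8 with PP1 and 258.1 with DMSO (log2 ratio 0.14), and 1448818_at had 95.3 with PP1 and 92.8 with DMSO (0.04). Neither ratio exceeded the SD between probe sets. Probe set 1437673_at, had 77.4 with PP1 and 28.0 with DMSO, the latter value below the floor, which puts it at least 2.44-fold higher. It is the 1 member probe set that was at least 2-fold higher. Among probe sets with a brighter signal of 2 to 4 times the floor, 8.93% were at least 2-fold higher. The fourth, 1456976_at, had 26.3 with PP1 and 13.1 with DMSO, both under the floor. The 3 measured Wnt5a ratios therefore spanned at least 1.25 on the log2 scale, the widest span of any member.

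Wnt16, the remaining listed ligand, had 1 probe set, with 19.7 under PP1 and 29.2 under DMSO. Both are below the floor and the difference was not resolved. Of the 16 other mouse Wnt genes, 6 were measured and 10 were under the floor on both arrays, the group that includes Wnt1, Wnt3a and Wnt10b, classical activators of β-catenin. The 6 had a median log2 ratio of 0.51 with 3 at least 1.5-fold higher, 0 at least 1.5-fold lower and 0 at 2-fold in either direction. Of all measured genes 10.6% were at least 1.5-fold higher and 7.38% at least 1.5-fold lower. At 2-fold the shares were 3.02% higher and 1.55% lower, and the group counts below stand beside these same shares. Dim probe sets tended above 0: near a mean log2 signal of 5.375 the median ratio of all measured probe sets was 0.23. Wnt5b had 59.8 with PP1 and 16.003 with DMSO, at least 1.89-fold higher, and its other probe set gave 0.15. Wnt6 had 53.7 with PP1 and 32.2 with DMSO (0.74). Wnt7b had 52.7 with PP1 and 10.2 with DMSO, at least 1.66-fold higher. All 6 were dimmer than 4 times the floor, and Wnt11 (0.30), Wnt9a (-0.16) and Wnt7a (-0.29) lay within 1.5-fold.

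The co-receptors Lrp5 and Lrp6 are single-pass receptors that bind Axin once a Wnt has engaged them. Lrp5 had 1 probe set, 1449299_at, with 134.7 with PP1 and 115.1 with DMSO (0.23). For Lrp6, 1428500_at had 444.2 with PP1 and 348.4 with DMSO (0.35), and the dim 1451022_at had 41.7 with PP1 and 31.96 with DMSO (0.38). The 2 Lrp6 ratios lay 0.03 apart, and both were above 0, as in 34.3% of genes with 2 measured probe sets. All 3 co-receptor ratios were smaller than the SD between probe sets.

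Of the receptors that work with them, all 15 listed were measured, with a median log2 ratio of -0.03. None of the 15 reached 2-fold, 0 were at least 1.5-fold higher and 2 were at least 1.5-fold lower. Fzd6, a Frizzled of planar polarity signalling, had 130.3 with PP1 and 246.2 with DMSO (-0.92), but its other probe set gave 0.03. Fzd10 had 22.8 with PP1, under the floor, and 54.9 with DMSO, at least 1.73-fold lower. The brightest probe set of Fzd1 (0.16) and that of Fzd4 (-0.14) disagreed with a second one at 1.12 and 1.11. The Wnt5a receptors Ror2 and Ryk were at -0.07 and -0.06 by their brightest probe sets, with 0.32 by the other of Ror2 and down to -0.54 among the 3 of Ryk (474.9 with PP1 and 688.5 with DMSO). Of the ligand secretion and inactivation genes, Wls, the carrier that takes Wnts to the cell surface, was at 0.14 and the acyltransferase Porcn at -0.36.

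R-spondins and their Lgr receptors keep Frizzled and Lrp6 at the surface by removing the ubiquitin ligases Znrf3 and Rnf43. Of the 11 genes of this group 7 were measured, with a median of 0.24, 1 at least 2-fold higher and 0 at least 1.5-fold lower. Rspo2, an R-spondin known to promote osteoblast differentiation, had 1150 with PP1 and 484.7 with DMSO by its brighter probe set (1.25). Its second probe set was dim and went the other way, with 31.7 under PP1 and 57.6 under DMSO (-0.86). That PP1 signal was just under the floor. The direction of Rspo2 thus depends on the probe set, of which only the brighter lies far above the floor. Rspo3 was at 0.22, with 818.2 under PP1 and 703.6 under DMSO.

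β-catenin, which links cadherins to actin and carries the Wnt signal to the nucleus, had 3 probe sets far above the floor. The brightest, 1420811_a_at, had 5734 with PP1 and 5265 with DMSO (0.12). Probe set 1450008_a_at had 2293 with PP1 and 2262 with DMSO (0.02). The third, 1430533_a_at, had 949.0 with PP1 and 594.0 with DMSO (0.68), at least 1.5-fold higher, as were 8.95% of the 5307 probe sets with a brighter signal over 16 times the floor. The first 2 place Ctnnb1 at 1.09-fold and 1.01-fold of its DMSO level, and the third stands 0.66 above the lowest on the log2 scale. All 3 carry the suffix by which the array maker marks probe sets that match several transcripts of a gene.

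Of 12 genes of the destruction complex and Dishevelled, 11 were measured, with a median of 0.01, 0 at 2-fold in either direction, 1 at least 1.5-fold higher and 0 at least 1.5-fold lower. Btrc, the ubiquitin ligase subunit that recognises marked β-catenin, had 230.7 with PP1 and 134.7 with DMSO (0.78), and its dim second probe set gave -0.17. By their brightest probe sets Axin1 (0.10), Gsk3b (0.09) and Apc (-0.22) lay within 1.5-fold. A second Axin1 probe set, with 134.4 under PP1 and 58.7 under DMSO, gave 1.19, the 6 of Gsk3b ran from -0.39 to 0.37, and the 3 of Apc from -0.22 to 0.46. Among 7 genes of the cadherin complex, in which β-catenin also takes part, all were measured, with a median of 0.33. That median is the ratio of the dim Cdh1, with 39.9 with PP1 and 29.8 with DMSO, the latter under the floor. Of the 7, 4 were above 0 and 3 below, and 1 was at least 1.5-fold lower. The lower gene was plakoglobin (Jup), a close relative of β-catenin, with 142.5 with PP1 and 213.8 with DMSO (-0.59).

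**Figure D2:**
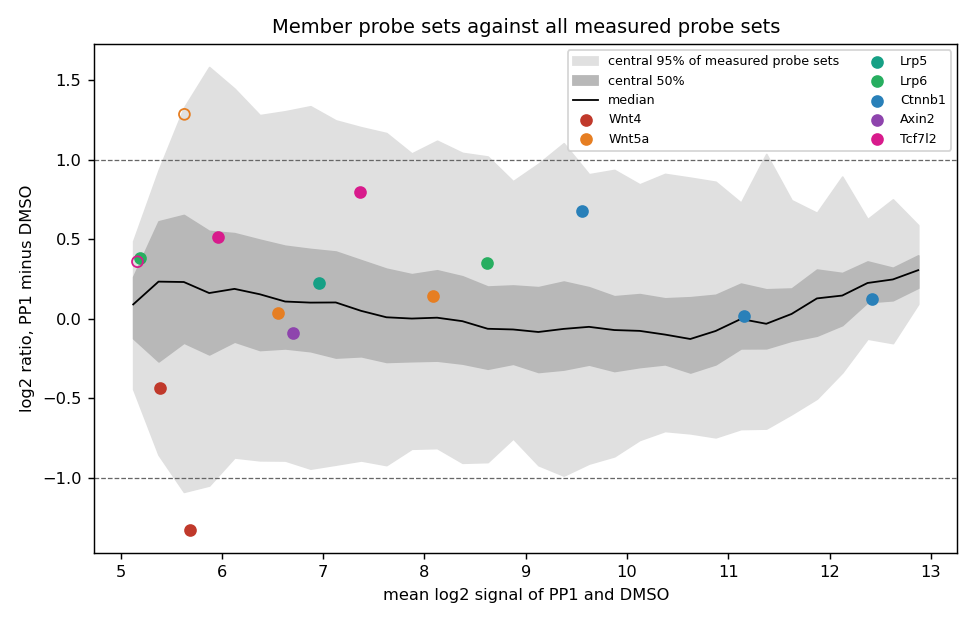
Log2 ratio (PP1 minus DMSO) against mean log2 signal for the 15 measured member probe sets, filled where both arrays exceeded the floor and open where only PP1 did. Grey bands hold the central 95% and 50% of all measured probe sets of like signal, the black line is their median, and dashed lines mark 2-fold. The lower Wnt4 point lies below the 95% band, while the Ctnnb1 point at 0.68 and the upper Tcf7l2 point at 0.80 lie inside it.

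Tcf7l2, known as TCF4 and a partner of β-catenin that can activate or repress targets, was the member with the highest gene-level ratio. Its brightest probe set, 1429428_at, had 216.7 with PP1 and 124.9 with DMSO, a ratio of 0.80 or 1.74-fold. Among probe sets with a brighter signal of 4 to 16 times the floor, 14.6% were at least 1.5-fold higher. Probe set 1429427_s_at had 74.4 with PP1 and 52.1 with DMSO (0.51). For 1425229_a_at the values were 40.7 with PP1 and 22.5 with DMSO, at least 1.28-fold higher, and 1426639_a_at was under the floor on both, with 23.7 under PP1 and 11.9 under DMSO. All 3 measured probe sets were above 0, as in 24.8% of the 1366 genes with 3 measured probe sets. As deposited, without scaling, the brightest stood at 0.05, so the higher value of Tcf7l2 depends on scaling the arrays to each other. Neither scale gives an absolute amount of RNA.

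Lef1, the TCF family member whose own promoter is a Wnt target in other tissues, had 23.8 with PP1 and 24.5 with DMSO by 1454734_at, and 2.79 with PP1 and 6.90 with DMSO by 1421299_a_at. Every value is below the floor, and no difference can be given. The fourth factor of the family, Tcf7l1, known mainly as a repressor, was at 0.53 by its brighter probe set, with 427.7 under PP1 and 296.4 under DMSO, and at -0.12 by the other.

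Of 13 TCF partners and nuclear regulators 12 were measured, with a median of 0.13, 1 at least 2-fold higher, 2 at least 1.5-fold higher and 1 at least 1.5-fold lower. The Groucho co-repressors, which bind TCF factors in place of β-catenin, went in both directions. Tle2 had 227.2 with PP1 and 105.2 with DMSO (1.11), whereas Tle1 had 152.4 with PP1 and 266.1 with DMSO (-0.80, or -0.22 by its other probe set). Tle3 was at -0.05 and Tle4 at 0.20, with up to 0.91 and 0.62 by dim other probe sets. Cby1, an antagonist that binds β-catenin, had 155.2 with PP1 and 100.1 with DMSO (0.63).

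Axin2, a negative feedback gene that β-catenin and TCF switch on in most tissues, is the listed target. Its probe set 1436845_at had 100.7 with PP1 and 107.2 with DMSO, a log2 ratio of -0.09. The difference is within the SD between probe sets. The second probe set, 1421341_at, had 2.09 with PP1 and 1.34 with DMSO, far under the floor, so Axin2 rests on 1 probe set.

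The wider list of 18 genes described as β-catenin targets in some tissue had 14 measured, with a median of 0.01, 2 at least 2-fold lower, 3 at least 1.5-fold lower and 1 at least 1.5-fold higher. Lower were Ccn4, a matricellular protein first found as Wnt1-induced, with 622.2 with PP1 and 2719 with DMSO (-2.13, and -2.66 by its other probe set), and its relative Ccn5, with 1235 with PP1 and 2196 with DMSO (-0.83). Myc had 243.7 with PP1 and 493.5 with DMSO (-1.02). Myc also responds to serum and other growth signals, and their part in its value was not tested. Higher was Bambi, a decoy receptor of the TGF-β family, with 116.9 with PP1 and 66.6 with DMSO (0.81). Among feedback genes used beside Axin2 to read the pathway, some lay within 1.5-fold by their brightest probe sets: Nkd1 at 0.20, Znrf3 at -0.12, Notum at 0.41, Lgr5 at 0.40 and Apcdd1 at 0.08. Of these, Nkd1 (45.8 with PP1 and 39.9 with DMSO) and Notum (58.8 with PP1 and 44.1 with DMSO) were dim. Sp5 and Rnf43, of the same list, were below the floor on both arrays and have no ratio. The 5 probe sets of Apcdd1 ran from -0.64 to 0.53. Nkd2, an inhibitor of Dishevelled, also lay within 1.5-fold by its brightest probe set, at -0.55. Its 4 measured probe sets were all below 0, from -0.62 to -0.17, but they share a transcript and are not independent.

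**Figure D3:**
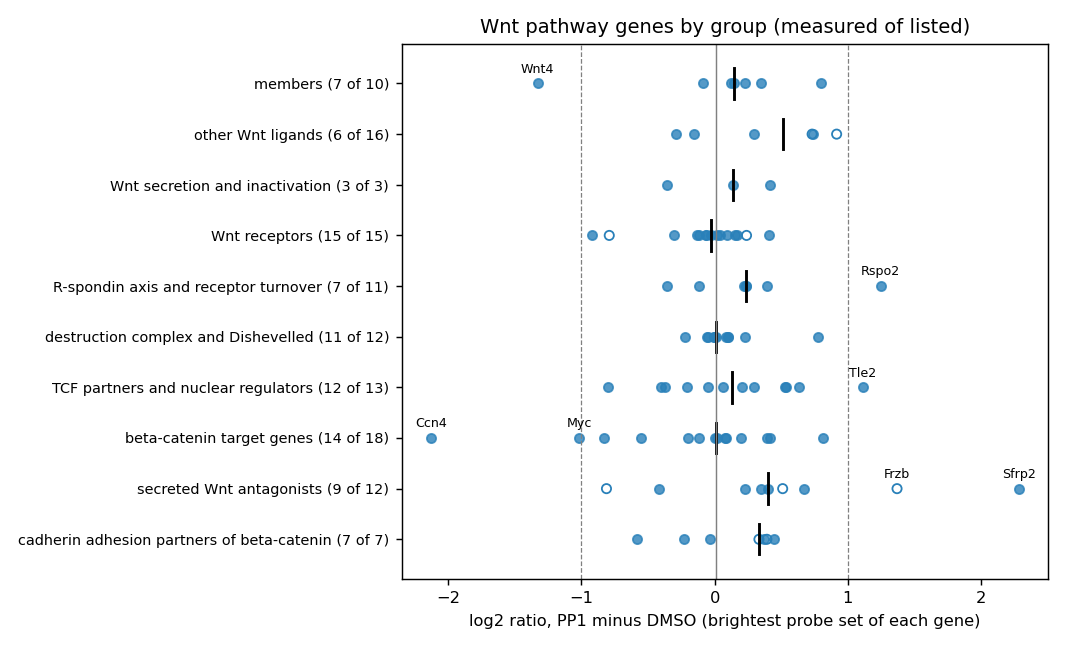
Gene-level log2 ratios (PP1 minus DMSO) for the members and for 9 groups of other pathway genes, with measured and listed numbers in the labels. Filled points exceeded the floor on both arrays, open points on 1 array and are bounds, black bars are group medians, the grey line is the median of all genes and dashed lines mark 2-fold. Genes at 2-fold or more are named.

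Most genes listed as secreted antagonists hold Wnts or their co-receptors away from each other. Of these 12 listed genes 9 were measured, with a median of 0.40. Among the 9, 2 were at least 2-fold higher, 3 at least 1.5-fold higher and 1 at least 1.5-fold lower. Sfrp2 had 2797 with PP1 and 574.2 with DMSO, and Dkk3 957.2 with PP1 and 601.2 with DMSO. The dim Frzb had 81.9 with PP1 and 30.2 with DMSO, the latter under the floor, at least 2.58-fold higher. Sfrp5, also dim, had 19.1 with PP1, under the floor, and 55.7 with DMSO, at least 1.76-fold lower. Sfrp1 counts at 0.35 here, but its 5 probe sets ran from -0.36 to 2.15, the highest with 2058 under PP1 and 462.9 under DMSO, so its size and direction depend on the probe set. Over all 103 other pathway genes, each counted once, 81 were measured, with a median of 0.08. Of these 4 were at least 2-fold higher (3.02% of all measured genes were) and 2 at least 2-fold lower (1.55%).

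The labelled cell type was checked against marker genes. Of 10 osteoblast markers 7 had a probe set and all 7 were measured, with a median log2 ratio of 0.37, 4 above 0 and 3 below. The summed signals were 33501 with PP1 and 24773 with DMSO, most of it from Col1a1, Col1a2 and Sparc, while Sp7 (-0.43), Pth1r (-0.23) and Ibsp were below 0. Ibsp, a matrix protein gene, at 37.7 with PP1 and 159.1 with DMSO (-2.08), was the 1 marker of these that was at least 2-fold lower. Other cells were present: all 11 macrophage markers were measured (summed signals of 11417 with PP1 and 9455 with DMSO, median log2 ratio -0.01). Of the 11, 5 were above 0, 1 at least 2-fold higher (Mrc1, 1.11) and 0 at least 2-fold lower. Of 6 smooth muscle and pericyte markers 5 were measured, all below 0 (median -0.53), with sums of 8189.9 with PP1 and 10777 with DMSO. Among them 2 were at least 2-fold lower: Cspg4 at -1.74 and Cnn1, under the floor with PP1, at most at -1.37. Of 5 adipocyte markers with a probe set all were above 0 (median 0.55, Lpl at 1.32), with sums of 7659 with PP1 and 4191 with DMSO. Of all measured genes 51.1% were above 0, 3.02% at least 2-fold higher and 1.55% at least 2-fold lower. Of 7 skeletal muscle markers 6 were measured, 5 of them above 0 (median 0.55, Des at 1.43 and Myog at least at 1.37), with sums of 1079 with PP1 and 945.2 with DMSO. Of 7 cartilage markers 6 were measured, 1 of them above 0 (median -0.25, Acan at -1.18), with sums of 5272 with PP1 and 6085 with DMSO. Medians of the 5 osteoclast (-0.08), 4 endothelial (0.19) and 4 epithelial (-0.18) markers that were measured lay nearer 0. Lymphocytes, which use Tcf7 and Lef1, had 1 of 7 markers measured, with Cd3e, Cd3g, Cd4, Cd79a and Ms4a1 below the floor on both arrays. Fewer cells of a type and less RNA per cell cannot be told apart in these bulk samples, and the part of the cell mixture in the Wnt4 and Tcf7l2 values was not tested.

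**Figure D4:**
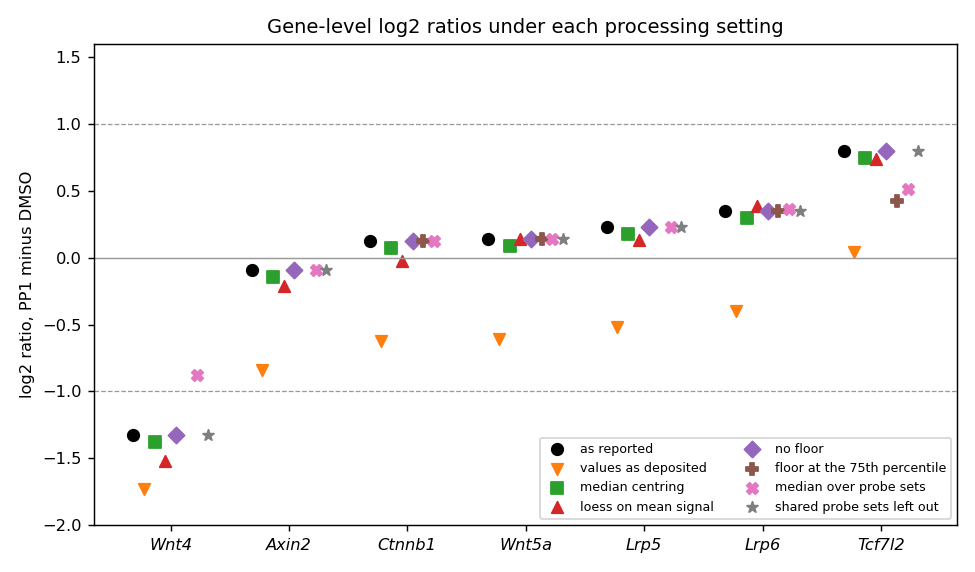
Gene-level log2 ratios (PP1 minus DMSO) of the 7 measured members as reported and under 7 other processing settings, with dashed lines at 2-fold. Values as deposited lie lower for every member, between -1.73 for Wnt4, a bound set by the floor, and 0.05 for Tcf7l2. Wnt4 is lowest and Tcf7l2 highest in each setting that gives them a value.

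Across the settings plotted, Wnt4 stayed lowest and Tcf7l2 highest where they had a value, though both were picked as the outer members of these same 2 arrays. Median centring shifts all members alike, and omitting the floor or the shared probe sets left both values unchanged. Their places under those settings therefore add no support. Wnt4 ran from -1.73 as deposited to -0.88 as the median over its probe sets, and had no value with the floor at the 75th percentile. The -1.73 is a bound set by the floor, since the deposited signals without a floor give -2.08. Tcf7l2 ran from 0.05 as deposited to 0.80, with 0.74 under loess and 0.43 with the higher floor. Ctnnb1 by its brightest probe set was at -0.03 under loess and -0.63 as deposited. It had no value with the shared probe sets left out, a class that here takes in those matching several transcripts of a gene. Axin2 stayed below 0, at -0.21 under loess and -0.84 as deposited. Lrp5, Lrp6 and Wnt5a were above 0 in each setting that scales the arrays and below 0 as deposited, at -0.52, -0.40 and -0.61.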

How the data were processed

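RNA from 1 PP1 and 1 DMSO culture was hybridised to Affymetrix mouse arrays. The values are linear intensities deposited by the authors, made with MAS5 per the submitters' processing notes; its version and scaling target are not given in the labels. Of 45101 probe sets, 64 controls were left out. Names came from the platform annotation (34945 probe sets with 1 gene, 932 with several, 9160 with none), updated where the gene identifier was found in RefSeq's table of GRCm38.p6 (34741 probe sets); sequences are RefSeq's of that build.

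The PP1 array was scaled to the 2% trimmed mean of DMSO, signals were floored at 31.7 and log2 was taken. Each gene takes the ratio of whichever of its probe sets is brightest by mean log2 over both arrays. Calls are at 2-fold or 1.5-fold, with no test, since the number of arrays (1 per group) limits the precision. The steps were tested on simulated data, in which only genes with bright signals were given changes, all of them larger than 2-fold. Calls near the floor, such as that of Wnt4, or near 2-fold were not covered.

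Members and gene lists were chosen with earlier results of these data known. Of the other pathway genes, those at least 1.5-fold different were to be named, or 2 of a list without any; further ones named near 0 were chosen after their values were seen. Alternatives were the values as deposited, omitting the floor or raising it to the 75th percentile, median centring and loess. Others were a median across each gene's probe sets, dropping shared probe sets (suffixes s, x and a), and 1.5-fold calls. Work was done in Python 3.11.15 with numpy 2.4.6, pandas 2.3.3 and statsmodels 0.14.6.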

Additional observations from a re-analysis of the deposited data

How the results depend on the processing

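Most counts over all features moved with the scale, the floor and the threshold. As deposited, the calls at 2-fold were 112 probe sets and 50 genes higher and 5083 probe sets and 2883 genes lower, against 1001 and 366 higher and 347 and 188 lower after scaling; the median log2 ratio of measured probe sets shifted by -0.68. With no floor the counts were 1799 probe sets and 606 genes higher and 718 and 314 lower, and with the floor at the 75th percentile 241 and 111 higher and 135 and 84 lower. At 1.5-fold they were 3258 and 1291 higher and 1723 and 896 lower.

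For the members, the 1 probe set at least 2-fold higher, of Wnt5a, became 0 as deposited and 0 with the higher floor, and 3 at the 1.5-fold threshold, where 1 gene (Tcf7l2) was higher. The 1 gene at least 2-fold lower, Wnt4, became 0 with the higher floor, under which its probe sets are not measured, and 0 with the median over probe sets; the count of 1 member probe set lower became 0 with the higher floor. Of the 15 member probe sets, 13 kept their sign under loess and 13 under median centring, and the ones that changed sign had ratios between 0.02 and 0.12 after scaling. As deposited, 5 of 14 measured kept theirs. No paired analysis was possible because each group is 1 array. Dim signal limits the Wnt4 values and leaves Wnt16 and Lef1 without a ratio, and 8 of the 15 measured member probe sets never reach 4 times the floor.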
